A study of Mus musculus with 7 samples.

Results

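The 10 genes described here encode ligands, receptors, SMAD proteins and a target of the transforming growth factor beta (TGF-beta) and activin pathway. They were chosen by symbol (Inhba, Tgfb1, Tgfb2, Tgfb3, Tgfbr1, Tgfbr2, Acvr1b, Smad3, Smad7 and Tgfbi) from the 22180 genes measured on Affymetrix Mouse Gene 2.0 ST arrays. Probe sets were to be selected on their mean signal over all 7 arrays, keeping the brightest per gene, but each of the 10 genes had 1 probe set, so no choice was made. The RNA came from mouse colon lamina propria macrophages, sorted as CD45+ CD11b+ CD64+ MHCII+ Ly6C- cells after 5% dextran sulphate sodium (DSS, a colitis-inducing polysaccharide) for 5 days and normal water for 3 days. In 4 samples the mice were Rictor fl/fl LysM+/cre, carrying cre recombinase in the myeloid-expressed LysM (Lyz2) locus, and in 3 samples they were Rictor fl/fl LysM+/+, with the same floxed Rictor alleles and no cre. The RICTOR protein is a part of mTORC2, one of the complexes of the kinase mTOR. All groups carried the floxed alleles and all had colitis, so effects of Rictor loss and of cre itself cannot be told apart, and there is no healthy colon for comparison. Ages and sexes were not used here, and nothing used here says whether a sample pooled animals, so p-values measure the spread between these samples.

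TGF-betas are secreted in a latent form and, once freed, bind the receptor kinase TGFBR2, which recruits TGFBR1. Activin A, a dimer of the chain encoded by Inhba, binds a type II activin receptor that recruits ACVR1B. Both receptor pairs phosphorylate SMAD2 and SMAD3, which enter the nucleus with SMAD4, and SMAD7 is an inhibitor that the pathway itself induces. In mice, signalling through the TGF-beta receptor is known to be needed for monocytes to mature into colon macrophages, and activin A is known as a product of inflammatory macrophages.

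Signals are log2 array intensities. Array medians lay between 5.16 and 5.22, and no pair of arrays held identical values. The genes of the sort gate were bright on every array, with H2-Ab1 at 12.59 to 13.48 on LysM+/cre arrays and 13.11 to 13.41 on LysM+/+ arrays. They were not all alike between the genotypes. Fcgr1, which encodes CD64, read 11.10, 10.78, 10.28 and 10.75 with cre, against 10.28, 9.49 and 9.49 without (0.97 ± 0.26 SE, limma adjusted p = 0.362). Itgam, which encodes CD11b, averaged higher with cre by 0.53 ± 0.19 (SE, limma adjusted p = 0.415). The signal of Rictor does not test the labels, because it is unknown here whether its probes lie in the deleted part. It read 7.72, 7.76, 8.25 and 7.80 on the LysM+/cre arrays and 7.76, 7.74 and 7.80 on the LysM+/+ arrays. Lyz2, the locus that carries cre, averaged 10.08 ± 0.22 (SD, n = 4) with cre and 10.20 ± 0.14 (SD, n = 3) without, with overlap, so the signal of neither gene separated the genotypes. The median gene had a mean of 5.55, and 9 of the 10 genes lay above it. Tgfb2 was the exception. Probe sets differ in how brightly they report a transcript, so the levels below give no order of abundance between genes.

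Inhba was the most variable of the 10 genes and had the largest difference between the genotypes. It read 7.48, 5.69, 7.38 and 7.57 on the LysM+/cre arrays, against 5.95, 4.45 and 5.13 on the LysM+/+ arrays. Arrays 1, 3 and 4 with cre lay together at the top, and LysM+/cre array 2 lay below LysM+/+ array 1, so the groups overlapped. The lowest and highest arrays were 3.12 log2 units apart, or 8.7-fold. The standard deviation over the 7 arrays was 1.25, and 99.8% of all genes varied less. The group means were 7.03 ± 0.90 (SD, n = 4) with cre and 5.18 ± 0.75 (SD, n = 3) without, a log2 difference of 1.85 ± 0.55 (SE, 95% interval 0.55 to 3.16), or 3.61-fold. This did not pass limma's test adjusted over all genes (adjusted p = 0.394). Inhba was chosen with its spread already known, so its spread is a description.

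The promoter windows of 3 genes are shown, Inhba, Tgfb1 and Tgfbi, because these are the genes of the group with a limma p under 0.05 before adjustment. Each is the 250 bases before the annotated start, 5′ to 3′ on the gene's strand (RefSeq, GRCm38.p6). They lie at chr13:16011601-16011850 for Inhba, chr7:25686752-25687001 for Tgfb1 and chr13:56609336-56609585 for Tgfbi, all on the + strand. Capitals mark TATAAA and the GC box GGGCGG, each searched on both strands.
Inhba: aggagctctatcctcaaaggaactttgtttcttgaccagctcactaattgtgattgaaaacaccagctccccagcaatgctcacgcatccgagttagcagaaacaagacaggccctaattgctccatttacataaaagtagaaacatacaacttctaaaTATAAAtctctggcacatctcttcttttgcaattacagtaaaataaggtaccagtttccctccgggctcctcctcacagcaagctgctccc
Tgfb1: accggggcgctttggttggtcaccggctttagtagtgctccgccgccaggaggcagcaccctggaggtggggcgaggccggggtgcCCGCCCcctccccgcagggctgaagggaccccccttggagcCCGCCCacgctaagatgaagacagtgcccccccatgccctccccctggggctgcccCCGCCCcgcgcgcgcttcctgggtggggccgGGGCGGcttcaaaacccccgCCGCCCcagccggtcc
Tgfbi: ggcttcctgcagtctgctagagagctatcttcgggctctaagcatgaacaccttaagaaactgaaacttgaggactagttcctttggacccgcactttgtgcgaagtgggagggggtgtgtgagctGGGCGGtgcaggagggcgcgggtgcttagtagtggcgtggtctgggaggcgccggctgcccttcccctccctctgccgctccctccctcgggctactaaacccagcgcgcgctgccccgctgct
The Inhba window was the poorest in G and C of the 9 windows found for 8 of the 10 genes, at 43.2% against 75.2% for Tgfb1 and 62.4% for Tgfbi, and 19% of all 32851 windows held less. It held 3 CG dinucleotides, against 21 for Tgfb1 and 15 for Tgfbi. TATAAA occurred once in the Inhba window, from position -91, and not in the Tgfb1 or Tgfbi windows, and 12.4% of all windows held it. GGGCGG occurred 5 times in the Tgfb1 window, once in that of Tgfbi and not in that of Inhba, and 32.7% of all windows held it. None of the 3 windows held the AP-1 motif TGANTCA (6.75% of all windows), the CRE TGACGTCA (1.55%) or the SMAD-type motifs CAGACA (17.1%) and GTCTAGAC (0.167%), which says only that these letters are not in this window. TGANTCA, GTCTAGAC and TGACGTCA read the same on both strands, and no motif shown overlapped another.

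Tgfb1, the main TGF-beta isoform of leukocytes, was bright on every array. It read 11.24, 10.95, 10.79 and 11.17 with cre, against 10.65, 10.81 and 10.43 without. The groups overlapped only through LysM+/cre array 3 and LysM+/+ array 2, which lay next to each other. The means were 11.04 ± 0.21 (SD, n = 4) with cre and 10.63 ± 0.19 (SD, n = 3) without, a log2 difference of 0.41 ± 0.14 (SE), or 1.33-fold (limma adjusted p = 0.406).

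Tgfb3, another TGF-beta isoform, read 8.73, 8.36, 8.43 and 7.56 with cre, against 8.10, 6.22 and 8.08 without. One array, LysM+/+ array 2, lay far below all others, and the remaining arrays of the groups overlapped. The log2 difference was 0.80 ± 0.51 (SE, limma adjusted p = 0.576), and it was 0.18 without LysM+/+ array 2. Tgfb2 was dim, at 4.98, 5.37, 5.13 and 4.76 with cre, against 5.13, 5.13 and 5.56 without. The groups overlapped throughout, with a log2 difference of -0.21 ± 0.17 (SE, 95% interval -0.62 to 0.19, limma adjusted p = 0.647). Without LysM+/+ array 3 it was -0.071.

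**Figure D1:**
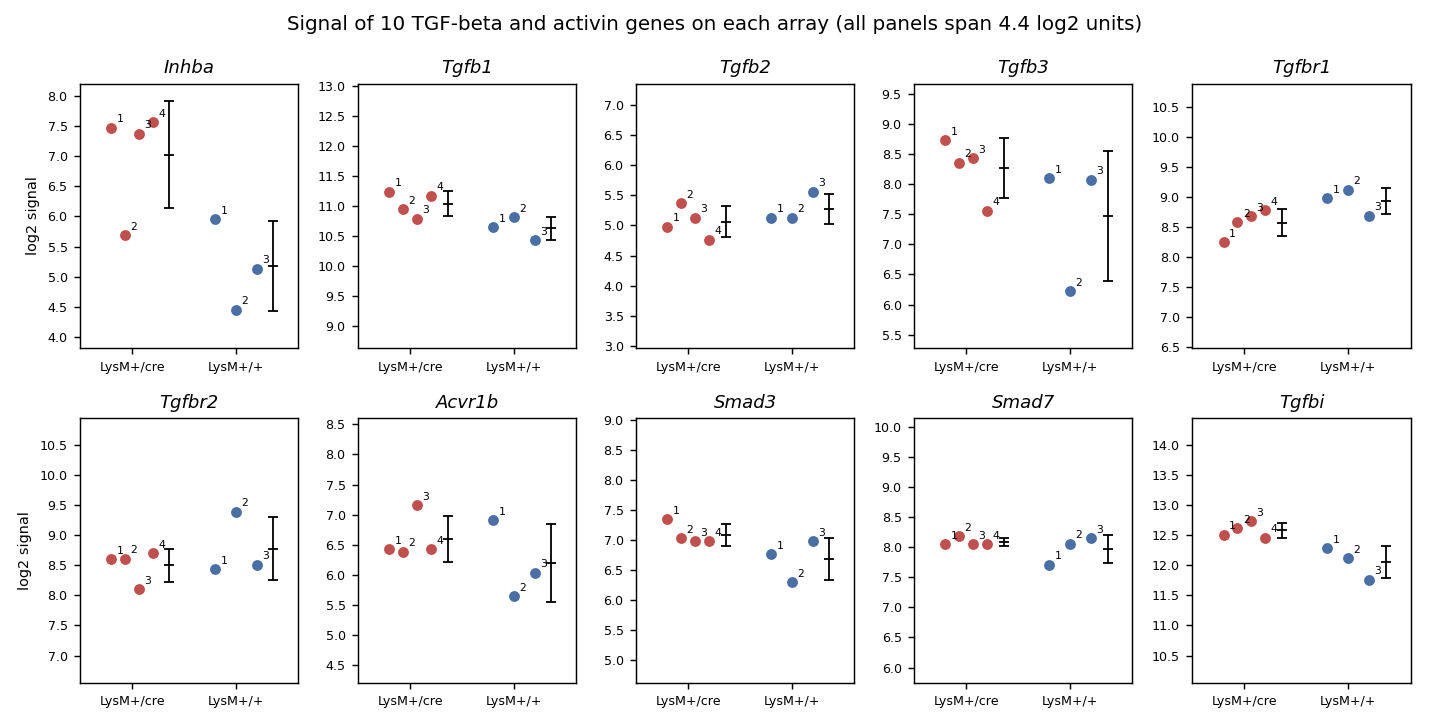
Log2 signal (vertical axes, each spanning 4.4 units) of the 10 genes on each LysM+/cre array (left, n = 4) and LysM+/+ array (right, n = 3); numbers are the array numbers and black bars the mean and SD. Inhba spans 3.12 units with LysM+/cre array 2 among the LysM+/+ arrays, Tgfb3 is low on LysM+/+ array 2, and Tgfbi does not overlap between the groups.

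The 2 TGF-beta receptor genes both averaged lower with cre, and neither passed the test. Tgfbr1, the signalling kinase, read 8.25, 8.58, 8.68 and 8.78 with cre, against 8.98, 9.12 and 8.69 without. Only LysM+/cre array 4 lay above a LysM+/+ array. The log2 difference was -0.36 ± 0.16 (SE, 95% interval -0.72 to 0.012, limma adjusted p = 0.447).

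Tgfbr2, the ligand-binding kinase, read 8.60, 8.61, 8.10 and 8.70 with cre, against 8.44, 9.39 and 8.51 without. Its difference of -0.28 ± 0.26 (SE, limma adjusted p = 0.697) rested on LysM+/+ array 2, the highest array, and was 0.027 without it. Acvr1b, the type I activin receptor, read 6.42, 6.38, 7.16 and 6.42 with cre, against 6.91, 5.64 and 6.03 without. LysM+/cre array 3 and LysM+/+ array 1 were the high arrays. The difference was 0.40 ± 0.33 (SE, limma adjusted p = 0.653), 0.12 without LysM+/+ array 2 and 0.76 without LysM+/+ array 1.

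Smad3, which carries the signal of both ligands to the nucleus, read 7.35, 7.03, 6.98 and 6.98 with cre, against 6.77, 6.30 and 6.98 without. LysM+/+ array 3 had the same deposited value as LysM+/cre arrays 3 and 4, and the other LysM+/+ arrays lay below all 4 arrays with cre. The difference was 0.40 ± 0.18 (SE, 95% interval -0.015 to 0.82, limma adjusted p = 0.448), and 0.21 without LysM+/+ array 2. Smad7, the inhibitory SMAD, was the least variable of the 10 genes. It read 8.05, 8.18, 8.05 and 8.05 with cre, against 7.71, 8.06 and 8.15 without, a difference of 0.11 ± 0.11 (SE, 95% interval -0.15 to 0.37, limma adjusted p = 0.716). Without LysM+/+ array 1, the lowest, it was -0.02.

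Tgfbi, a secreted matrix protein induced by TGF-beta, was the one gene of the 10 whose groups did not overlap. It read 12.51, 12.62, 12.73 and 12.46 with cre, against 12.29, 12.12 and 11.76 without. The means were 12.58 ± 0.12 (SD, n = 4) with cre and 12.06 ± 0.27 (SD, n = 3) without, a log2 difference of 0.52 ± 0.14 (SE, 95% interval 0.20 to 0.85), or 1.44-fold (limma adjusted p = 0.362). Without LysM+/+ array 3 it was 0.37. Among all genes, 8.79% did not overlap between the groups, 5.23% with the LysM+/cre arrays higher and 3.56% with them lower.

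None of the 10 genes passed limma's adjusted threshold of 0.05, and among all 22180 genes 0% did, the smallest adjusted p under any setting tried being 0.0599. At a limma p under 0.05 before adjustment there were 3 of the 10, Inhba, Tgfb1 and Tgfbi, all higher with cre, against 11.5% of all genes, 6.56% higher and 4.93% lower. Leaving out 1 array at a time gave 2 to 4 of the 10. By sign alone 7 of the 10 genes averaged higher with cre and 3 lower, with a median difference of 0.40, against a median of 0.0044 over all genes. A difference of at least 1.5-fold was found for Inhba and Tgfb3, against 3.82% of all genes. The 10 genes were chosen with earlier results of these data known, so these counts and medians are descriptions.

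**Figure D2:**
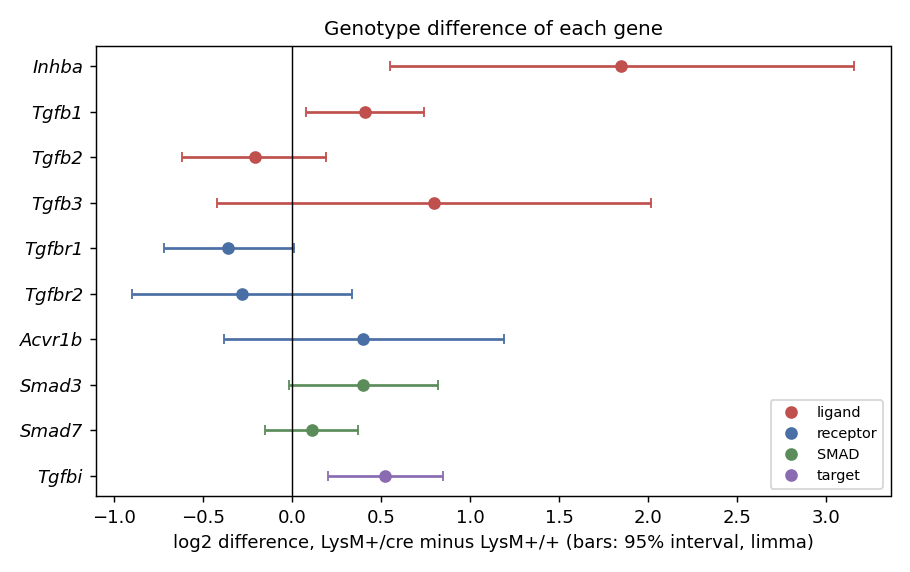
Log2 difference, LysM+/cre (n = 4) minus LysM+/+ (n = 3), of each gene with its 95% interval from limma, coloured by role. The intervals of Inhba (0.55 to 3.16), Tgfb1 (0.081 to 0.74) and Tgfbi (0.20 to 0.85) lie above 0 before adjustment, and that of Inhba is the widest.

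The pattern of Inhba over the arrays was set beside those of 521 other named genes that varied at least 0.5 times as much. The 8 most like it were Treml4 (Pearson r = 0.953), Atp2b4 (0.946), Egln3 (0.921), Cfb (0.912), Fgr (0.904), Rhou (0.899), Gngt2 (0.899) and Bnip3 (0.887), over 7 arrays that all these genes share. Their Spearman rho lay between 0.786 and 0.964, and r without the 2 arrays farthest from the median of Inhba, LysM+/cre arrays 4 and 1, between 0.877 and 0.952. These are descriptions, since the genes were picked for the likeness. Treml4, a myeloid receptor of the TREM family, read 8.80, 7.30, 8.04 and 8.58 with cre, against 7.39, 6.02 and 7.19 without. Here too LysM+/cre array 2 lay among the LysM+/+ arrays and LysM+/+ array 2 was lowest. Egln3, an oxygen-sensing prolyl hydroxylase, read 8.13, 6.95, 7.31 and 7.42 with cre, against 6.68, 4.97 and 5.99 without. Its arrays did not overlap between the groups, nor did those of Fgr and Gngt2, against 5.23% of all genes not overlapping and higher. Cfb encodes complement factor B, Fgr a SRC-family kinase of myeloid cells, Atp2b4 a plasma membrane calcium pump and Bnip3 a mitophagy receptor induced by hypoxia.

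Markers of other cells also differed between the arrays. Of 7 monocyte markers 5 averaged higher with cre. The mean log2 level of the 7 ran from 8.14 to 8.74 on LysM+/cre arrays and from 7.67 to 7.93 on LysM+/+ arrays. This gap rested on Chil3, the most variable of the 7, at 6.92, 6.91, 9.56 and 6.91 with cre, against 7.06, 3.34 and 5.25 without. Without Chil3 the mean levels of the groups would overlap. Ly6c2, which encodes the monocyte antigen that the sort excluded, read 9.30, 7.69, 7.87 and 8.48 with cre, against 6.87, 7.15 and 7.70 without (1.09 ± 0.41 SE, limma adjusted p = 0.415). F13a1, which encodes a chain of coagulation factor XIII, lay the other way, at 8.78, 9.83, 9.97 and 9.18 with cre, against 10.36, 11.20 and 9.98 without. Its difference was -1.08 ± 0.39 (SE, limma adjusted p = 0.414), with no overlap, and S100a4 was at -0.66. At a limma p under 0.05 before adjustment the list thus had 1 marker higher and 1 lower, against 6.56% and 4.93% of all genes. All 8 neutrophil markers averaged higher with cre, with a mean level of 6.94 to 9.03 on LysM+/cre arrays and 5.74 to 7.87 on LysM+/+ arrays. Only 1 of the 8 had a limma p under 0.05 before adjustment, against 6.56% of all genes higher at that limit. It was Mmp9 (1.35 ± 0.45 SE, limma adjusted p = 0.406). The neutrophil level was highest on LysM+/cre array 3 and lowest on LysM+/+ array 2, the array with the lowest Inhba, Tgfb3, Acvr1b and Smad3. That array also had the highest Tgfbr1 (9.12) and Tgfbr2 (9.39). On LysM+/cre array 2, where Inhba was low, the neutrophil level was 8.03 and the monocyte level 8.25. The sort for CD64+ MHCII+ Ly6C- cells would remove neutrophils and Ly6C+ monocytes, and the part of such cells in the values of Inhba, Tgfb1, Tgfb3 and Smad3 was not tested. In bulk samples such as these, fewer cells of a type and less RNA per cell cannot be told apart.

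**Figure D3:**
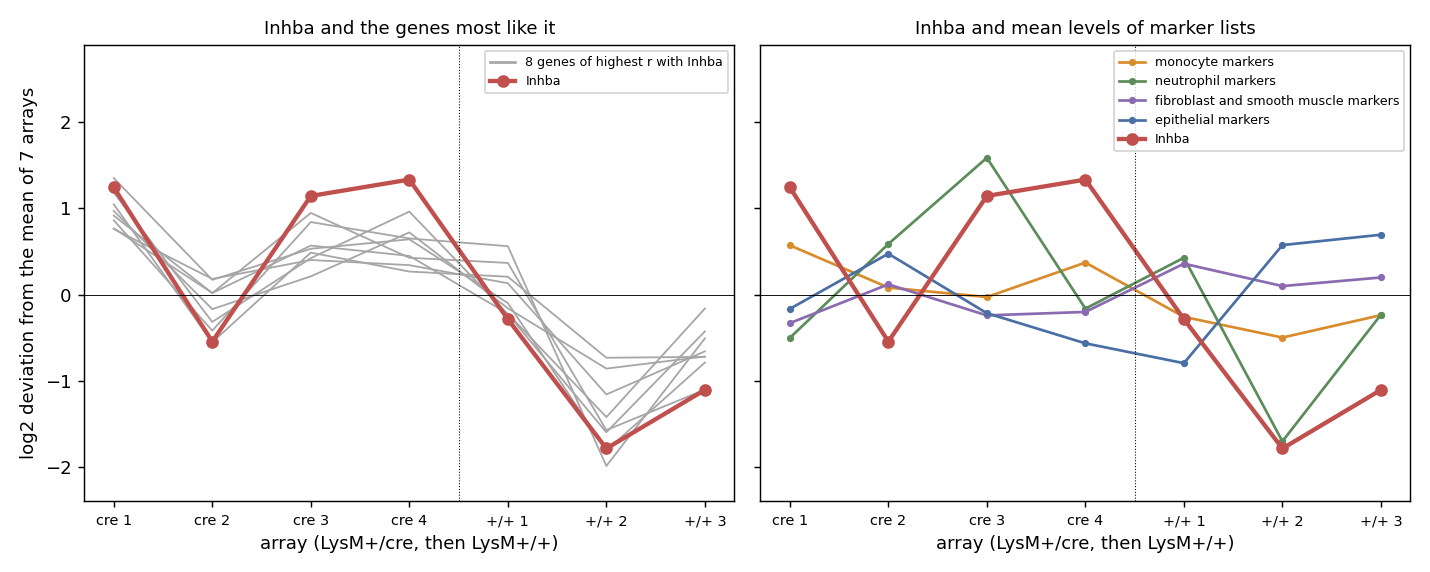
Log2 deviation from the mean of 7 arrays for Inhba (red) on each array, LysM+/cre arrays left of the dotted line and LysM+/+ arrays right; lines join the values of 1 gene or list. Left, the 8 genes most like Inhba (grey, r from 0.887 to 0.953) share its low LysM+/+ array 2. Right, the means of the neutrophil and monocyte lists are also lowest there, the monocyte mean only through Chil3 (3.34 on that array). Of the other monocyte markers, Plac8 and Vcan are lowest there and F13a1 and S100a4 highest. On LysM+/cre array 2 the neutrophil mean is high, and the monocyte mean lies below those on LysM+/cre arrays 1 and 4.

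The rest of the family was described from lists that held 84 other measured genes, of which 32 averaged higher and 52 lower with cre (median log2 difference -0.047). None passed the adjusted threshold. At a limma p under 0.05 before adjustment there were 2 higher and 9 lower, against 6.56% and 4.93% of all genes, and the groups did not overlap for 2 higher and 9 lower, against 5.23% and 3.56% of all genes.

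Among 19 other ligands, 3 bone morphogenetic protein (BMP) genes had lower means with cre at a limma p under 0.05 before adjustment. Of all genes, 4.93% were lower at that limit. Bmp4 read 6.19, 5.97, 5.27 and 5.37 with cre, against 7.55, 6.92 and 6.72 without, a log2 difference of -1.36 ± 0.29 (SE, limma adjusted p = 0.333). Bmp5 read 5.84, 6.28, 6.41 and 5.75 with cre, against 6.88 and 6.92 on LysM+/+ arrays 1 and 2 and slightly more on array 3 (-0.86 ± 0.17 SE, limma adjusted p = 0.328). In both genes every array with cre lay below every array without, as for 3.56% of all genes. Bmp2 differed by -0.96 ± 0.36 (SE, limma adjusted p = 0.416), with overlap. Gdf3 was at 0.24.

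Among 17 genes of latency, activation and extracellular inhibition, 8 averaged higher and 9 lower with cre. At a limma p under 0.05 before adjustment 1 was higher and 2 were lower, against 6.56% and 4.93% of all genes. Both lower ones, Ltbp4 and Ltbp1, encode latent TGF-beta binding proteins, which hold latent TGF-beta in the matrix. Ltbp4 read 6.12, 7.16, 6.39 and 6.92 with cre, against 7.58, 7.79 and 7.85 without (-1.09 ± 0.25 SE, limma adjusted p = 0.341), with no overlap. Ltbp1 differed by -0.79 ± 0.25 (SE, limma adjusted p = 0.401), with overlap. Ltbp3, of the same kind and named here after its value was seen, was at -0.067. Ltbp2, which does not bind latent TGF-beta, went the other way by 0.24 ± 0.057 (SE, limma adjusted p = 0.345). Thbs1, encoding thrombospondin 1, an activator of latent TGF-beta, was very bright at 13.22, 13.11, 13.30 and 13.09 with cre, against 12.82, 12.00 and 13.09 without. Its difference of 0.54 ± 0.24 (SE, limma adjusted p = 0.451) came mostly from the low LysM+/+ array 2.

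Some fibroblast markers also averaged lower with cre. Of 12 fibroblast and smooth muscle markers 9 averaged lower with cre, and 4 of these had a limma p under 0.05 before adjustment, against 4.93% of all genes lower at that limit. Their mean level ran from 6.69 to 7.14 on LysM+/cre arrays and from 7.12 to 7.38 on LysM+/+ arrays. Dcn, the proteoglycan decorin, read 9.64, 10.45, 10.01 and 10.17 with cre, against 11.93, 10.94 and 11.47 without. The other 3 under that limit were Lum (-0.78), Pdgfra (-0.88) and Myh11 (-0.46). The fibroblast genes Col1a1 (0.037), Col3a1 (0.17) and Thy1 (0.093) averaged higher, and Col1a2 was at -0.032. Bmp4, Bmp5, Ltbp1 and Ltbp4 are known in stromal cells, which the CD45+ sort would remove. Whether their signal came from macrophages was not tested. Markers of epithelial cells, which the CD45+ sort would also remove, all lay above the median gene. Of these 10 markers 9 averaged lower with cre, 1 of them at a limma p under 0.05 before adjustment. Their mean level ran from 7.10 to 8.14 on LysM+/cre arrays and from 6.87 to 8.36 on LysM+/+ arrays.

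Of 12 other receptors 9 averaged lower. Tgfbr3, the coreceptor betaglycan, varied most, at 5.57, 7.48, 6.80 and 7.27 with cre, against 8.46, 6.85 and 8.15 without (-1.04 ± 0.56 SE, limma adjusted p = 0.512). Bmpr1a (-0.28), Bmpr2 (-0.22) and Acvr1c (-0.13) differed less. Of the 6 other SMAD genes, 3 averaged lower, all with no overlap between the groups, against 3.56% of all genes not overlapping and lower. They were the BMP-pathway genes Smad1 (-0.18) and Smad5 (-0.15) and Smad4 (-0.16), the partner shared by both branches, named here after its values were seen. None of these 3 had a limma p under 0.05 before adjustment. Smad6, an inhibitor of the BMP branch, was higher by 0.22 ± 0.068 (SE, limma adjusted p = 0.395). It also had no overlap, against 5.23% of all genes not overlapping and higher. Smad2, which acts beside Smad3, was at 0.17.

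Of 15 genes of SMAD partners and inhibitors, 6 averaged higher and 9 lower with cre. At a limma p under 0.05 before adjustment 0 were higher and 2 were lower, against 6.56% and 4.93% of all genes. These 2, the corepressors Skil and Ski, which bind SMAD proteins, were lower by small amounts. Skil read 9.17, 9.20, 9.38 and 9.37 with cre, against 9.41, 9.59 and 9.58 without. Its log2 difference was -0.24 ± 0.084 (SE, limma adjusted p = 0.408), with no overlap, against 3.56% of all genes not overlapping and lower. Ski differed by -0.26 ± 0.11 (SE, limma adjusted p = 0.428). Of the same list Usp15, a deubiquitinase of the TGF-beta receptor, was at 0.34 and Tgif2 at -0.15.

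Of 15 other genes induced by TGF-beta or activin, 4 averaged higher and 11 lower with cre, with a median log2 difference of -0.073, against 0.0044 over all genes. Jun, an AP-1 subunit also induced by many other stimuli, read 10.94, 11.40, 10.98 and 11.36 with cre, against 11.56, 12.34 and 11.78 without (-0.72 ± 0.21 SE, limma adjusted p = 0.394). Ccn2, connective tissue growth factor, was at -0.16, Id1 at -0.17 and Cdkn1a, a cell cycle inhibitor, at 0.23.

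**Figure D4:**
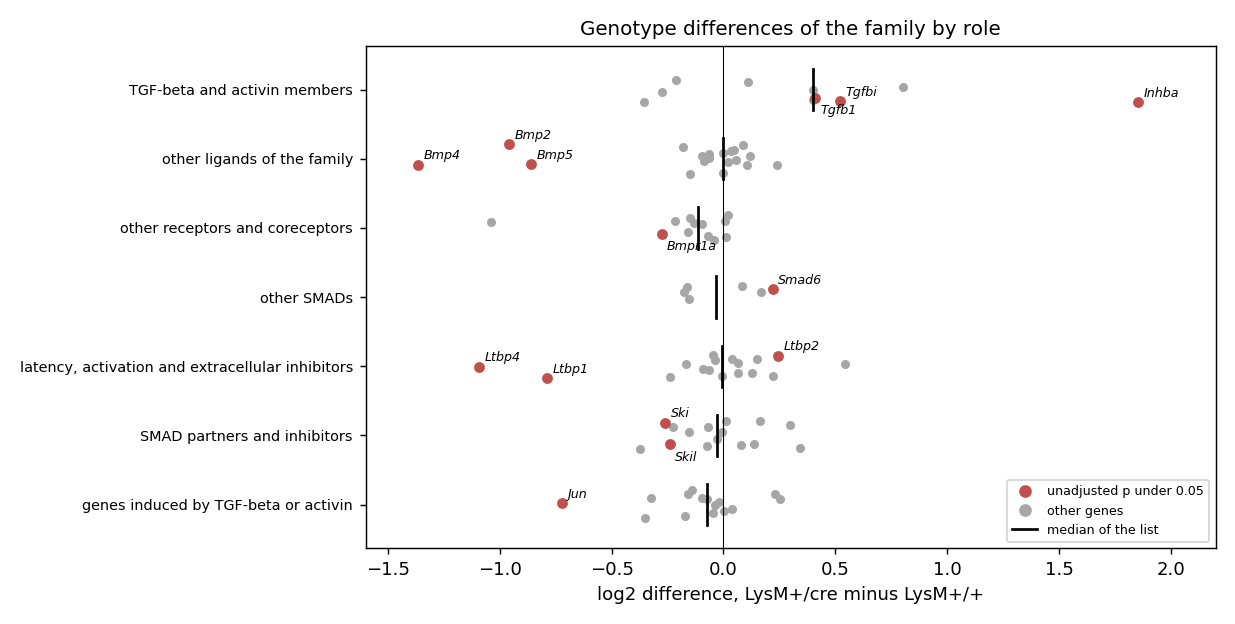
Log2 difference, LysM+/cre minus LysM+/+, of the 10 genes (top row) and of 6 lists of other family genes, 1 point a gene with the vertical position within a row spread at random. Red points have an unadjusted p under 0.05 and are named, and black lines are list medians. The top row has a median of 0.40, and the medians of the other lists lie near 0, with Bmp4 (-1.36) and Ltbp4 (-1.09) the lowest genes. The genes of all rows were chosen with earlier results of these data known, so the contrast is a description.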

How the data were processed

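Each deposited value is the log2 intensity of a probe set. Per the design text of the series, the authors processed the arrays with Affymetrix Expression Console, and the submitters' processing notes also name Transcriptome Analysis Console. For the versions, the summarisation and the background correction nothing is stated in the sources used here. The array medians nearly coincide, at 5.16 to 5.22, as they would after normalization between arrays. After such a step a shift shared by all genes would not be seen. Of 41345 probe sets, 23521 had exactly 1 symbol in the platform annotation, which gave 22180 genes with the brightest probe set kept for each. Genotypes were compared as LysM+/cre minus LysM+/+ with limma 3.58.1 in R 4.3.3 (lmFit, eBayes), two-sided, Benjamini-Hochberg over all genes at 0.05, with no filter or covariate. The code was tested on simulated data for this comparison (20 sets of 22180 genes, 200 changed), where it recovered 83.9% of 2-fold and 97.2% of 4-fold changes with 5.29% false calls. The changed genes were drawn at random and the noise was normal and independent. These rates therefore check the code and do not apply to a gene as variable as Inhba.

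The members and lists were chosen with earlier results of these data known. Named genes are the 10 members, up to 4 genes of smallest p per list plus any under 0.05, and the 8 most like Inhba, leaving out microRNAs, predicted genes and antigen receptor segments. Listed genes with no single-symbol probe set (7) were not analysed here. Other scalings, filters, probe set rules, variance models, array weights, a replicate block and leaving out each array were tried. Figures used matplotlib 3.10.9.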

Additional observations from a re-analysis of the deposited data

Results flagged for a closer look

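In 5 of the 10 genes a single LysM+/cre array stood apart from the other 3 by more than Dixon's limit for 4 values. For Inhba it was LysM+/cre array 2, at 5.69 against 7.38 to 7.57. For Tgfbr2 it was LysM+/cre array 3, at 8.10 against 8.60 to 8.70, and for Acvr1b the same array, at 7.16 against 6.38 to 6.42. For Smad3 it was LysM+/cre array 1, at 7.35 against 6.98 to 7.03. For Smad7 it was LysM+/cre array 2, at 8.18 with the others at 8.05.

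The same held for 5 other named genes. Bmpr1a was at 4.31 on LysM+/cre array 2 with the others at 4.43. On LysM+/cre array 1, Smad6 was at 5.25 with the others at 5.12, Smad5 at 5.86 with the others at 6.06, and Usp15 at 9.17 against 8.76 to 8.81. Rictor was at 8.25 on LysM+/cre array 3, against 7.72 to 7.80. Chance flags about 1 in 20 groups, and 36 genes were looked at. Groups of 3, such as the LysM+/+ arrays, are too small for this measure. Where the other arrays hold identical deposited values, as in Smad7, Bmpr1a, Smad6 and Smad5, any different value stands apart by this measure.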

How the results depend on the processing

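Over 15 alternatives, 147 of 149 values of the 10 genes kept their sign and stayed on the same side of the adjusted threshold. The exceptions were Smad7 without LysM+/+ array 1 (-0.02) and Tgfbr2 without LysM+/+ array 2 (0.027). The difference of Inhba ran from 1.49 to 2.30 when 1 array was left out, and its limma adjusted p from 0.232 to 0.621 over all settings. For Tgfbi the difference ran from 0.37 to 0.64 (limma adjusted p from 0.184 to 0.621), and for Tgfb1 from 0.31 to 0.50 (limma adjusted p from 0.271 to 0.621). Without 1 array Tgfbr2 ran from -0.45 to 0.027 and Smad7 from -0.02 to 0.20. Genes under an unadjusted p of 0.05 numbered 2549, and 1693 to 2779 when 1 array was left out, the fewest without LysM+/cre array 1. The count at an adjusted p under 0.05 was 0 in every setting. The filter on dim probe sets left out Tgfb2.

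Whether the shared replicate numbers mark pairs of arrays is not known, and arrays this few cannot decide it. Deviations from the group means correlated at -0.115, 0.121 and 0.103 for numbers 1, 2 and 3. For arrays with unlike numbers they correlated at -0.311 to 0.239. With the replicate block on 6 arrays the difference of Inhba was 1.67 ± 0.23 (SE, limma adjusted p = 0.414), against an SE of 0.55 without the block. In that setting 2139 genes had an unadjusted p under 0.05. Depth does not apply to arrays, and their number limits the precision of every value.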

Other observations

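Exact ties between arrays were common in the deposited values. Of the 22180 genes, 11930 (53.8%) had the same value on at least 2 arrays and 6661 (30%) on at least 3. Among the genes described here, Smad7 had one value (8.05) on LysM+/cre arrays 1, 3 and 4, Smad3 one value (6.98) on LysM+/cre arrays 3 and 4 and LysM+/+ array 3, and Tgfb2 one value (5.13) on LysM+/cre array 3 and LysM+/+ arrays 1 and 2. Acvr1b had one value (6.42) on LysM+/cre arrays 1 and 4. Inhba, Tgfb1, Tgfb3, Tgfbr1, Tgfbr2 and Tgfbi had 7 distinct values. Ties make the spread of a gene look smaller, and what made them was not tested.

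Some further genes of latency, activation and extracellular inhibition were also measured. Nrros, which tethers latent TGF-beta on myeloid cells, had a log2 difference of -0.038 (LysM+/cre minus LysM+/+). Lrrc32 was at -0.24, the integrin gene Itgav at 0.065, and the activin antagonist genes Fst and Fstl3 at 0.065 and -0.0072. None of these had a limma p under 0.05 before adjustment.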
